A study of Homo sapiens with 6 samples.

Results

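In all, 10 transcripts linked to FOXO transcription factors and to withdrawal from the cell cycle were followed over 6 plating densities of MCF10A, a widely used cell line of human mammary epithelium that does not form tumours. The genes were taken by symbol: FOXO1 and FOXO3 themselves, the targets CCNG2, IRS2 and PIK3IP1, and PDCD4, YPEL3, YPEL5, KLF6 and BTG1, listed for a link to withdrawal from the cell cycle. All 10 were measured, among 19775 genes in all, by 30 probe sets that carry their symbol alone.

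The 6 samples differed in the number of cells plated in a 35 mm dish, which was 50K, 100K, 200K, 400K, 600K or 800K, with K as in the labels, and shared everything else that the labels give. RNA was taken after 24 h. All dishes received insulin at 10 μg/ml together with gentamicin at 100 μg/ml, cholera toxin at 100 ng/ml, hydrocortisone at 0.5 μg/ml, EGF at 20 ng/ml and 5% horse serum, so a strong activator of the insulin pathway was present at every density. Each density has 1 array and no replicate. The deposited value of a probe set is its ratio to the 50K array, which carries changes but no level, so the epithelial label could not be checked against marker levels, signal over background is unknown, and precision is limited by the 6 arrays. Below, 5 values given for a gene without further label are its log2 ratios at 100K, 200K, 400K, 600K and 800K, in that order.

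FOXO proteins are forkhead transcription factors that act downstream of insulin and growth factor receptors. When phosphatidylinositol 3-kinase (PI3K) and the kinase AKT are active, FOXO proteins are phosphorylated and held in the cytoplasm by 14-3-3 proteins; when the pathway is quiet they enter the nucleus and switch on genes of cell cycle arrest, stress resistance and insulin sensitivity. This control acts largely on the protein, which arrays of RNA do not measure.

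The DNA motif that FOXO proteins are known to bind, GTAAACA, was looked for on both strands in the RefSeq promoter windows of build GRCh38.p14 (250 bases before to 50 after a gene's start), which matched all 10 genes. It was present in the windows of 3 of them, BTG1, YPEL3 and PIK3IP1, and in 3.42% of 35116 windows overall. The related insulin response motif CAAAACA, which does not overlap those matches, was found in IRS2 alone among the 10 and in 4.92% of all windows. The 4 stretches are shown because BTG1 and YPEL3 rose with density whereas PIK3IP1 and IRS2 did not pass the test. Each reads 5′ to 3′ on the strand of its gene, here always the minus strand, with the match in capitals (TGTTTAC and TGTTTTG are the motifs on the opposite strand).
BTG1, the 250 bases before its start, chr12:92145847-92146096: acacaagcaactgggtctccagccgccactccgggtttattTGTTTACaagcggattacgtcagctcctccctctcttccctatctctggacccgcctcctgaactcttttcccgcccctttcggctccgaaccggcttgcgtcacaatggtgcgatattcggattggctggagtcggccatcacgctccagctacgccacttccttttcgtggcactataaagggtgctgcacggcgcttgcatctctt
YPEL3, 257 bases ending with the match at its start, chr16:30096207-30096463: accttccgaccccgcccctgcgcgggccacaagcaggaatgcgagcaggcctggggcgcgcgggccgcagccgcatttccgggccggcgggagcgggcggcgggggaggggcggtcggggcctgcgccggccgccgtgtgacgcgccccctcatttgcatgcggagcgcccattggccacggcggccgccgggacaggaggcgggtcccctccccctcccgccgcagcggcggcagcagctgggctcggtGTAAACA
PIK3IP1, 27 bases around the match, chr22:31292456-31292482: aaagagaggcTGTTTACcagaacagca
IRS2, 27 bases around the match, chr13:109786607-109786633: agtcacatgtTGTTTTGctcttcttag
The match of BTG1 began 209 bases before its annotated start and that of IRS2 40 bases before it. That of PIK3IP1 began 16 bases after the start of its window. The other window of PIK3IP1, chr22:31292485-31292784, held no match. Over all genes with a window, GTAAACA was present for 5.32% of 1429 genes that rose with density, 3.48% of 2042 that fell and 3.63% of 11913 that did not pass. These shares are given without a test, and a match is a description of the sequence.

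The question put to the data was how expression changed with density, fitted for each gene as the slope of its log2 ratio per doubling of the cells plated. Of the 10 genes, 5 rose, at an adjusted p under 0.05 in limma: PDCD4, YPEL5, YPEL3, BTG1 and FOXO1. None fell, and FOXO3, CCNG2, IRS2, PIK3IP1 and KLF6 did not pass. Across all genes 8.93% rose and 12.4% fell by the same rule, 21.3% together. The 10 genes were chosen with earlier results of these data known, so comparisons of them with all genes are not independent. Of the 30 single-symbol probe sets 11 rose and 1 fell, against 7.14% and 10.1% of all 41091. The median slope of the 10 was 0.15 log2 units per doubling, and that of all genes was 0.0045. Of the 10, 4 were at least 2-fold higher at 800K than at 50K, as were 2.25% of all genes, and none was 2-fold lower, against 2.69%. In these cultures a change in the share of expressing cells and a change in RNA per cell cannot be told apart. The count of 5 became 7 without the 50K array, 3 without 100K, 2 without 600K and 2 without 800K. Among all genes the number that rose, 1765 with every array, became 1298, 1288, 1045 and 1026 in the same order. The lower counts of the 10 thus came with fewer rising genes in all, and the 7 went against that drop. Probe sets with the suffixes _x_at and _s_at mark possible cross-hybridisation. When these were left out, FOXO1, IRS2 and YPEL5 had no probe set, and 1 of the other 7 rose. Among all genes 1157 then rose, out of fewer genes with a probe set.

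**Figure D1:**
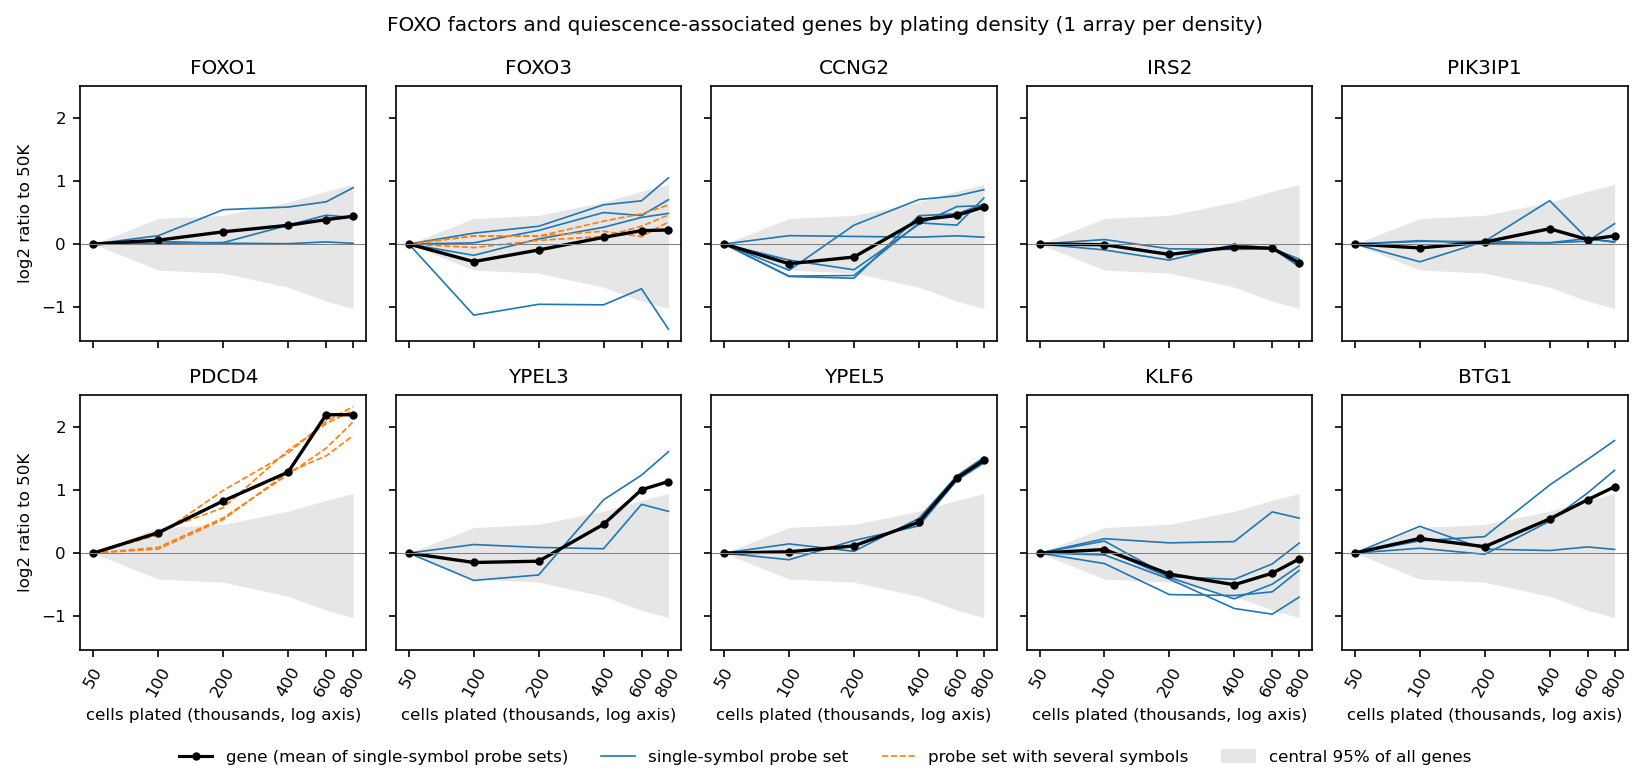
Log2 ratio to the 50K array (vertical axis) against the cells plated (horizontal axis, K as in the labels, log scale) for each of the 10 genes, with 1 array per density. Black points are the gene, blue lines its single-symbol probe sets, dashed orange lines probe sets listed with several symbols, and the grey band holds the central 95% of all genes. As genes, PDCD4 leaves the band from 200K on and YPEL5, YPEL3 and BTG1 from 600K on. FOXO1, which rose, stays inside it, as do FOXO3, CCNG2, IRS2, PIK3IP1 and KLF6.

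FOXO1, a forkhead factor best known for insulin-dependent control of metabolic and arrest genes, rose a little at every step. Its log2 ratios ran 0.06, 0.19, 0.30, 0.39 and 0.44. Each array was above all arrays of lower density. The slope was 0.11 ± 0.01 log2 units per doubling (SE, 6 arrays; adjusted p = 0.00321 in limma), and FOXO1 reached 1.36-fold at 800K. The adjusted p stayed at or below 0.0207 with any 1 array left out. Of the 3 probe sets of FOXO1, 202723_s_at was 1.86-fold and 202724_s_at 1.34-fold higher at 800K, and both rose. The third, 228484_s_at, lay between 1.00 and 1.03 on every array.

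FOXO3, the second forkhead factor, gave a divided picture. As a mean of its 4 single-symbol probe sets its log2 ratios ran −0.28, −0.09, 0.11, 0.21 and 0.22. The 3 denser arrays were above the 3 sparser ones, and 100K was the lowest. The slope was 0.09 ± 0.04 (adjusted p = 0.132 in limma). Of these probe sets 3 rose, with ratios at 800K of 1.40 (204131_s_at), 2.07 (224889_at) and 1.63 (224891_at). The fourth, 231548_at, was at 0.457 already at 100K and at 0.392 at 800K, and its slope did not pass. FOXO3 passed when the median of its probe sets was taken (slope 0.16, adjusted p = 0.0102), without the 50K array (slope 0.18, adjusted p = 0.00911) and with the 3 probe sets added that are also listed for FOXO3B, a near-identical gene (slope 0.10, adjusted p = 0.0403). Signals of FOXO3 and FOXO3B on those 3 cannot be separated.

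The slopes of FOXO1 and FOXO3 differed by 0.02 ± 0.04, which did not pass an exact permutation test over all 720 orders of the cell numbers (two-sided, p = 0.636, adjusted p = 0.763 over 6 pairs of genes compared). FOXO4 and FOXO6, the other two factors of the family, had 1 probe set each and did not pass. FOXO4 was highest at 100K, at a log2 ratio of 0.62, and lay between 0.29 and 0.36 on the denser arrays. FOXO6 was highest at 600K, at 0.83, and was 0.20 at 800K.

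CCNG2, IRS2 and PIK3IP1, the 3 genes listed here as FOXO targets, did not pass the test. CCNG2, an unconventional cyclin that is induced in arrested cells and restrains the cell cycle, lay below 50K on the sparse arrays and above it on the dense ones. Its log2 ratios ran −0.31, −0.21, 0.38, 0.45 and 0.59. The step from 200K to 400K, of 0.59, was larger than the 2 later ones together, and the 3 denser arrays were above the 3 sparser ones. The slope was 0.19 ± 0.06 (adjusted p = 0.0684 in limma). It passed without the 50K array (slope 0.33, adjusted p = 0.0126), against the untransformed cell number (adjusted p = 0.0188), on the rank of the cell number (0.0483) and as a contrast of the 3 highest with the 3 lowest densities (0.0292). Over its 14 alternatives the adjusted p lay between 0.0126 and 0.219. On 4 of its 5 probe sets the ratio was below 1 at 100K, from 0.699 to 0.838, and above 1 at 800K, from 1.52 to 1.82; the other, 1555056_at, lay between 1.08 and 1.10 on all 5 arrays.

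IRS2, an adaptor that links the insulin receptor to PI3K, lay below 50K on all other arrays without a steady course. Its log2 ratios ran −0.01, −0.17, −0.05, −0.07 and −0.30. The slope was −0.05 ± 0.03 (adjusted p = 0.258 in limma), and both probe sets had the same sign. The second adaptor, IRS1, ran through −0.65, −0.62, −1.33, −1.16 and −0.80. Its slope of −0.24 ± 0.07 did not pass (adjusted p = 0.0715), except without the 800K array (adjusted p = 0.0297). The slope of IRS2 minus that of IRS1 was 0.19 ± 0.11 (exact permutation, adjusted p = 0.34 over the 6 pairs). IRS4 had a slope of 0.03.

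PIK3IP1, a membrane protein that inhibits the catalytic subunit of PI3K, did not pass either. Its log2 ratios ran −0.06, 0.03, 0.24, 0.07 and 0.13, and its slope was 0.05 ± 0.02 (adjusted p = 0.237 in limma). The highest array was thus 400K. That height came from 1 of its 3 probe sets, 221757_at, which was at 1.61 at 400K and between 0.823 and 1.06 on the other arrays. The probe set 221756_at was highest at 800K, at 1.25, and 1555632_at lay between 1.01 and 1.06.

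PDCD4, a growth-restraining protein that binds and blocks the translation helicase EIF4A, rose most of the 10. Its log2 ratios ran 0.32, 0.83, 1.29, 2.20 and 2.20. PDCD4 was thus above 50K from the first step on, with equal values on the 600K and 800K arrays. Its slope was 0.58 ± 0.06 (adjusted p = 0.00264 in limma), which ranked 75 from the top of 19775 genes, and PDCD4 reached 4.58-fold at 800K. The adjusted p was 0.016 at most with any 1 array left out. This value rests on 1 probe set. A further 4 are listed with PDCD4 and MIR4680, a microRNA gene that lies within PDCD4 in the RefSeq annotation. All 4 rose, with ratios at 800K from 3.64 to 5.01 and slopes from 0.50 to 0.61. All 4, unlike the first, exceeded their 600K value at 800K.

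PDCD4 and PIK3IP1, which are not related to each other, were set against each other as the pair without relatives. The slope of PIK3IP1 minus that of PDCD4 was −0.53 ± 0.08 (exact permutation, p = 0.00556, adjusted p = 0.0333 over the 6 pairs). As PIK3IP1 had a slope of 0.05, this difference largely restates the slope of PDCD4, the highest of the 10. Of the partners of PDCD4, 5 of 6 were analysed. Of these, 2 fell and 3 did not pass, and 12.4% of all genes fell. EIF4G1, the scaffold of the cap-binding complex, had a slope of −0.22 ± 0.04 and RPS6KB1, the S6 kinase that marks PDCD4 for degradation, −0.07 ± 0.01. Both calls were lost without 600K (adjusted p = 0.059 and 0.0661 in limma) or 800K (0.0519 and 0.0782), and that of EIF4G1 also without 100K (0.06). That of EIF4G1 was lost between the 3 highest and the 3 lowest densities (0.0539). That of RPS6KB1 was lost without the _x_at and _s_at probe sets (0.0541), where EIF4G1 had no probe set, and with the median of its probe sets (0.0667). The helicase gene EIF4A2 had a slope of 0.01.

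YPEL3 and YPEL5 belong to a family of small zinc-binding proteins, of which YPEL3 is known for growth arrest and senescence. YPEL5 took the log2 ratios 0.02, 0.11, 0.49, 1.19 and 1.47. It hardly moved over the sparse range and gained most between 400K and 600K. The slope was 0.37 ± 0.08 (adjusted p = 0.0211 in limma), with 2.78-fold more at 800K than at 50K, and its 2 probe sets, at 2.86 and 2.69, both rose. Its call did not hold when 100K was left out (adjusted p = 0.0721), nor without 600K (0.0706) or 800K (0.0767), nor as a contrast of the 3 highest with the 3 lowest densities (0.0527).

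YPEL3 took the log2 ratios −0.15, −0.13, 0.46, 1.00 and 1.14. It was below 50K on both sparse arrays and above it on the 3 dense ones. The slope was 0.32 ± 0.08 (adjusted p = 0.0334 in limma) and YPEL3 reached 2.20-fold at 800K. Of its probe sets, 223179_at was at 0.74 at 100K and 1.80 at 400K and reached 3.05 at 800K, whereas 232077_s_at was at 1.05 at 400K, 1.71 at 600K and 1.58 at 800K. Neither passed alone (adjusted p = 0.0568 and 0.122 over 41091 probe sets). The call of YPEL3 was lost without 100K (adjusted p = 0.102), 400K (0.0521), 600K (0.1) or 800K (0.128), with arrays centred on their medians (0.053) and without the _s_at probe set (0.0558).

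The slopes of YPEL3 and YPEL5 differed by −0.05 ± 0.03 (exact permutation, adjusted p = 0.34 over the 6 pairs). The remaining YPEL genes did not pass: YPEL2 had a slope of 0.09 ± 0.03 (adjusted p = 0.0952 in limma), YPEL1 −0.04 ± 0.02 and YPEL4 0.01 ± 0.01. YPEL2 passed when 50K was left out (0.0359) and against the untransformed cell number (0.027).

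BTG1, an antiproliferative protein that recruits the CCR4-NOT deadenylase to messenger RNA, took the log2 ratios 0.23, 0.10, 0.54, 0.85 and 1.05. The 3 dense arrays were above the 3 sparse ones and followed the order of density. The slope was 0.25 ± 0.05 (adjusted p = 0.0144 in limma) and BTG1 reached 2.07-fold at 800K. The probe sets 200921_s_at and 200920_s_at were 3.45-fold and 2.48-fold higher at 800K, and both rose. The third, 1559975_at, was at 1.34 at 100K and between 1.03 and 1.07 on the denser arrays. It is the 1 probe set of BTG1 without the suffix _s_at, so that BTG1 had a slope of −0.02 (adjusted p = 0.819) when those were left out. The call was also lost without 600K or 800K (0.053 and 0.0566).

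Among the relatives of BTG1, TOB1 had a slope of 0.09 ± 0.03 (adjusted p = 0.0878 in limma), TOB2 0.04 ± 0.02 and BTG3 −0.02 ± 0.02, and none passed; BTG2 was not analysed here. TOB1 passed without the 400K array (0.0332), against the untransformed cell number (0.0186) and on its rank (0.0345). Among all genes 8.93% rose. Of the 6 partners of BTG1, CNOT8 and CNOT6L, deadenylase subunits, rose with slopes of 0.09 ± 0.02 and 0.08 ± 0.02, and 4 did not pass. Neither call held without 100K, 600K or 800K (adjusted p up to 0.0925), and that of CNOT6L was also lost without 50K (0.0733), with the median of its probe sets (0.143) and between the 3 highest and the 3 lowest densities (0.116).

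KLF6, a zinc finger factor that induces the inhibitor p21 and is an early response gene in epithelia, followed another course. Its log2 ratios ran 0.06, −0.33, −0.50, −0.32 and −0.09. As a mean of its probe sets it was thus lowest at 400K, and nearest to 50K at 100K and 800K. At 800K the probe sets ranged from 0.616 to 1.47, so the mean there joins values on both sides of 50K. The slope was −0.08 ± 0.05 (adjusted p = 0.365 in limma). Of the 5 probe sets, 4 were below 50K from 200K to 600K, at ratios from 0.51 to 0.888, and 208960_s_at, at 0.616 at 800K, was the 1 that fell. The fifth, 211610_at, was above 50K throughout and reached 1.57 at 600K. Without the _x_at and _s_at probe sets the slope of KLF6 was 0.05.

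Of the KLF relatives, KLF5, a factor of proliferating and stratified epithelia, rose with a slope of 0.30 ± 0.04, KLF3 with 0.17 ± 0.03, KLF9 with 0.15 ± 0.03 and KLF13 with 0.14 ± 0.01 (adjusted p from 0.00259 to 0.021 in limma). KLF2, KLF4, KLF7, KLF10, KLF11 and KLF12 did not pass, with slopes from −0.06 to 0.11. The slope of KLF6 minus that of KLF7, its closest relative, was −0.15 ± 0.07 (exact permutation, adjusted p = 0.317 over the 6 pairs). KLF7 passed without the 50K array (slope 0.22, adjusted p = 0.0359). KLF3 lost its call without 800K (0.0602) and KLF13 without the _x_at and _s_at probe sets (0.999). KLF9 lost it without 50K (adjusted p = 0.145), 100K (0.0692) or 600K (0.0549), with the median of its probe sets (0.77), against the untransformed cell number (0.121) and between the 3 highest and the 3 lowest densities (0.0734). CCNG1, the relative of CCNG2 and a p53 target, rose at every step to a log2 ratio of 0.73 at 800K (slope 0.18 ± 0.02, adjusted p = 0.00223). The slopes of CCNG2 and CCNG1 differed by 0.02 ± 0.06 (exact permutation, adjusted p = 0.786).

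**Figure D2:**
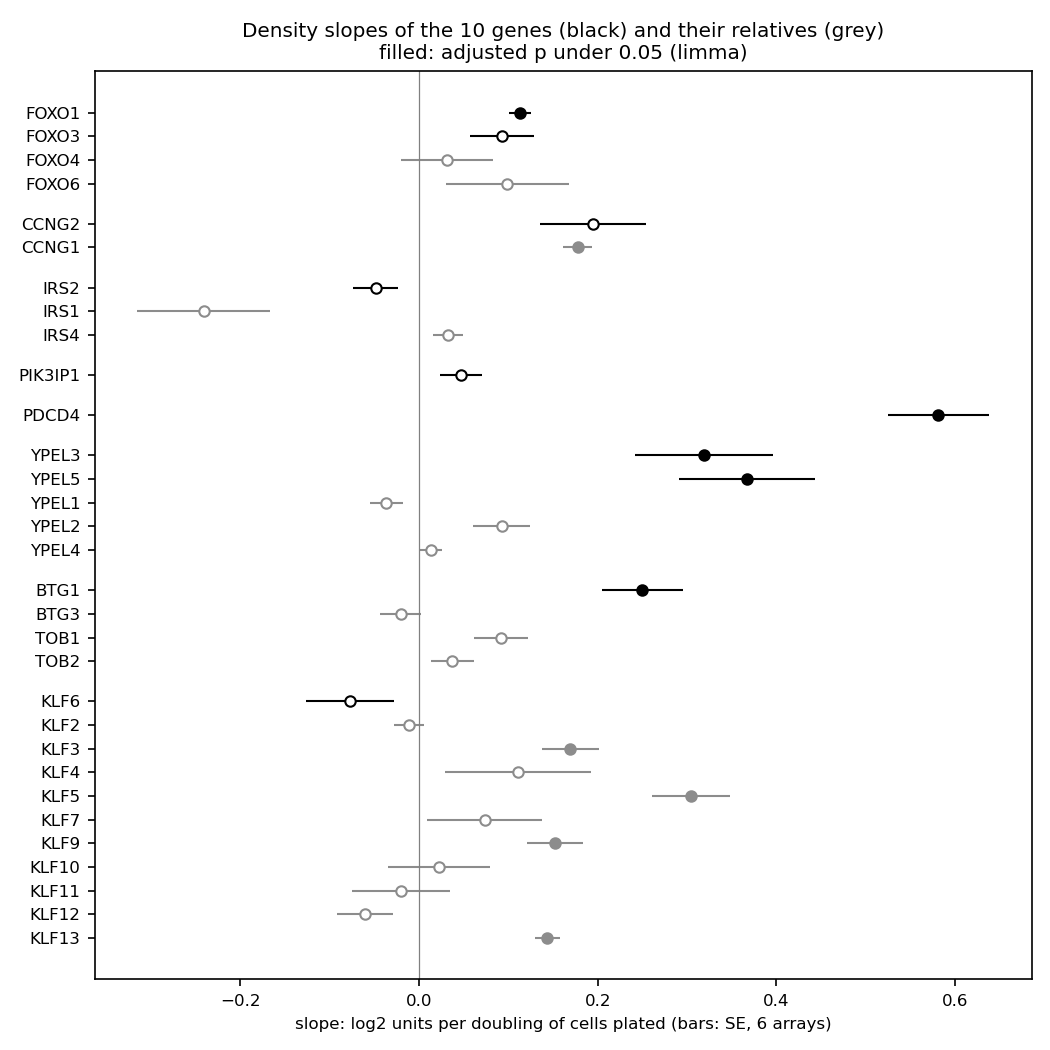
Slope of the log2 ratio per doubling of the cells plated (horizontal axis) for the 10 genes (black) and their relatives (grey), with the standard error from 6 arrays. Filled points have an adjusted p under 0.05 in limma; PDCD4, at 0.58, lies farthest to the right, IRS1, at −0.24, farthest to the left without passing, and YPEL3 and YPEL5 lie to the right of YPEL1, YPEL2 and YPEL4.

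For the genes that rose, the change was set out over 2 ranges, without a test of a difference in timing between genes. Over the 4-fold range from 50K to 200K the log2 change was 0.83 for PDCD4, 0.19 for FOXO1, 0.11 for YPEL5, 0.10 for BTG1 and −0.13 for YPEL3. Over the equal range from 200K to 800K it was 1.37, 0.25, 1.36, 0.95 and 1.26 in the same order of genes. Of the 10, 9 were higher at 800K than at 200K, all but IRS2, against 43.9% of all genes. The quadratic term, which measures how uneven a course is, did not pass for any of the 10 or for any gene (0.0% of 19775 in limma), while its unadjusted p was under 0.05 for 2496 genes, or 12.6%. Among these were 4 of the 10: YPEL3 (term 0.62 ± 0.10, adjusted p = 0.144 in limma), YPEL5 (0.61 ± 0.10, adjusted p = 0.15), CCNG2 (0.41 ± 0.13, adjusted p = 0.299) and BTG1 (0.31 ± 0.11, adjusted p = 0.336).

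The gene nearest in course to each of the 5 that rose was found by the root mean square distance of the log2 ratios over 5 arrays. It was LXN, a carboxypeptidase inhibitor, for PDCD4 (distance 0.15), HDAC11, a histone deacetylase, for FOXO1 (0.019), THBS3 for YPEL5 (0.076), JUNB, an AP-1 subunit, for YPEL3 (0.10) and MST1 for BTG1 (0.038). CDKN1C, an inhibitor of cyclin-dependent kinases, was the third nearest to PDCD4 (0.17). BNIP3 was nearest to KLF6 (0.064). LXN had a slope of 0.62 and was 4.94-fold higher at 800K.

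Beyond the 10 genes, 25 further genes known as FOXO targets were examined. Of these, 11 rose, none fell and 14 did not pass, with a median slope of 0.14 against 0.0045 for all genes. Among all genes 8.93% rose and 12.4% fell. This list, like the others, was chosen with earlier results of these data known, so its comparison with all genes is not independent. Without 600K 8 rose and without the 50K array 13. BCL6, a transcriptional repressor, took the log2 ratios 0.79, 1.10, 1.66, 1.99 and 2.25 (slope 0.53 ± 0.03, adjusted p = 0.000415 in limma). It was thus already raised at the first step. TXNIP, an arrestin that restrains glucose uptake, was at −0.01 at 100K and 0.39 at 200K and then at 1.61, 1.90 and 1.99. TNFSF10, the death ligand TRAIL, had a slope of 0.35 ± 0.06, and MXI1, an antagonist of MYC, 0.31 ± 0.04. Several classical targets did not pass, among them CDKN1B (slope 0.10 ± 0.05), GADD45A (−0.06 ± 0.05), SOD2 (0.17 ± 0.10) and CITED2 (−0.04 ± 0.02); these 4 were picked for naming after their values were seen.

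Of 24 listed genes of the insulin, PI3K and AKT pathway upstream of FOXO, 19 were analysed. Of these, 3 rose, 2 fell and 14 did not pass, with a median slope of −0.0087. Among all genes 8.93% rose and 12.4% fell. PIK3R1, the main regulatory subunit of PI3K, took the log2 ratios −0.07, 0.30, 0.83, 0.80 and 1.06 (slope 0.29 ± 0.04, adjusted p = 0.0059 in limma). PIK3R3, another regulatory subunit, rose with a slope of 0.19 ± 0.03, a call lost without 50K (0.0667), without _x_at and _s_at probe sets (0.0569) and between the 3 highest and the 3 lowest densities (0.164). RICTOR, the scaffold of the kinase complex that phosphorylates AKT, rose with 0.18 ± 0.02. MAPKAP1, 1 of the 2 genes that fell, was lower at every step, with a slope of −0.09 ± 0.01 (adjusted p = 0.00482 in limma). AKT1 fell with −0.12 ± 0.03 (adjusted p = 0.0462), and its call was lost with 100K, 400K, 600K or 800K left out (adjusted p at most 0.149), with a robust variance (0.0502) and where other genes were taken as the median of their probe sets (0.051), which leaves the slope of AKT1, with 1 probe set, as it was. The insulin receptor INSR was within 0.12 of its 50K value on every array on the log2 scale.

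Of 22 genes whose products act on FOXO proteins, 2 rose, 7 fell and 13 did not pass, with a median slope of −0.04. Among all genes 8.93% rose and 12.4% fell. Without 50K 4 fell, without 600K 3 fell and 1 rose, without 800K 2 fell and none rose, and without 100K 1 rose. SKP2, a ubiquitin ligase subunit that targets FOXO1 and the inhibitor p27, had a slope of −0.28 ± 0.06, CDK2 −0.26 ± 0.04 and the 14-3-3 protein gene YWHAG −0.15 ± 0.03. The kinase gene IKBKB rose with 0.19 ± 0.04. The calls of SKP2 and IKBKB were lost without 100K, 600K or 800K (adjusted p up to 0.101 and 0.082 in limma) and that of YWHAG without 800K (0.056). SKP2 and CDK2 are also genes of the proliferating cell.

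Of 16 other genes of arrest and of the pocket protein complexes, 5 rose, 3 fell and 8 did not pass, against 8.93% rising and 12.4% falling among all genes. CDKN1C rose to a log2 ratio of 2.18 at 800K. HES1, a Notch target known to keep quiescence reversible, had a slope of 0.24 ± 0.02, lost without the _x_at and _s_at probe sets (adjusted p = 0.58 in limma). TP53INP1 rose with 0.22 ± 0.04, lost with the median of its probe sets (0.357). RBL1, the pocket protein p107, which is itself a gene of cycling cells, fell with −0.21 ± 0.03. The number that fell was 2 without 50K or 400K and 1 without 600K or 800K.

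Proliferation genes moved the other way in the same arrays. Of 18, none rose, 11 fell and 7 did not pass, with a median slope of −0.29. Among all genes 8.93% rose and 12.4% fell. Without 100K 4 of the 18 fell, without 600K 4 and without 800K 5. Between the 3 highest and the 3 lowest densities 4 fell, whereas 17 fell against the untransformed cell number. FOXM1, a forkhead factor of mitotic genes, took the log2 ratios −0.02, −0.13, −0.55, −1.15 and −1.53. Its call was lost without 100K, 600K or 800K (adjusted p up to 0.0656 in limma). CCNE2 had a slope of −0.68 ± 0.11 and AURKB 1 of −0.49 ± 0.05. Both kept their calls with any 1 array left out (adjusted p at most 0.041 and 0.0168 in limma). Between the 3 highest and the 3 lowest densities that of AURKB was lost (0.0591). MCM7, with −0.36 ± 0.07, lost its call without 100K (0.054) or 600K (0.0521) and in that contrast (0.051). The part of the share of cycling cells in the rise of PDCD4, YPEL3, YPEL5 and BTG1 was not tested. Markers of other cell types were measured beside them. Of 7 fibroblast markers 1 rose (DCN), of 4 leukocyte markers 1 (CD14, slope 0.74) and of 5 endothelial markers 2 (PECAM1 and KDR), and none fell. The shares over all genes were 8.93% rising and 12.4% falling. The calls of DCN, PECAM1 and KDR were each lost without 50K, 100K, 600K or 800K, and those of DCN and KDR also without 200K. Of 4 basal epithelial markers, KRT14 (slope 0.42) and KRT5 (0.12) rose and ITGA6 (−0.10, adjusted p = 0.0484 in limma) fell, the latter a call lost without any 1 array but 200K. The ratios give no summed level of these markers, and their part in the results was not tested.

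**Figure D3:**
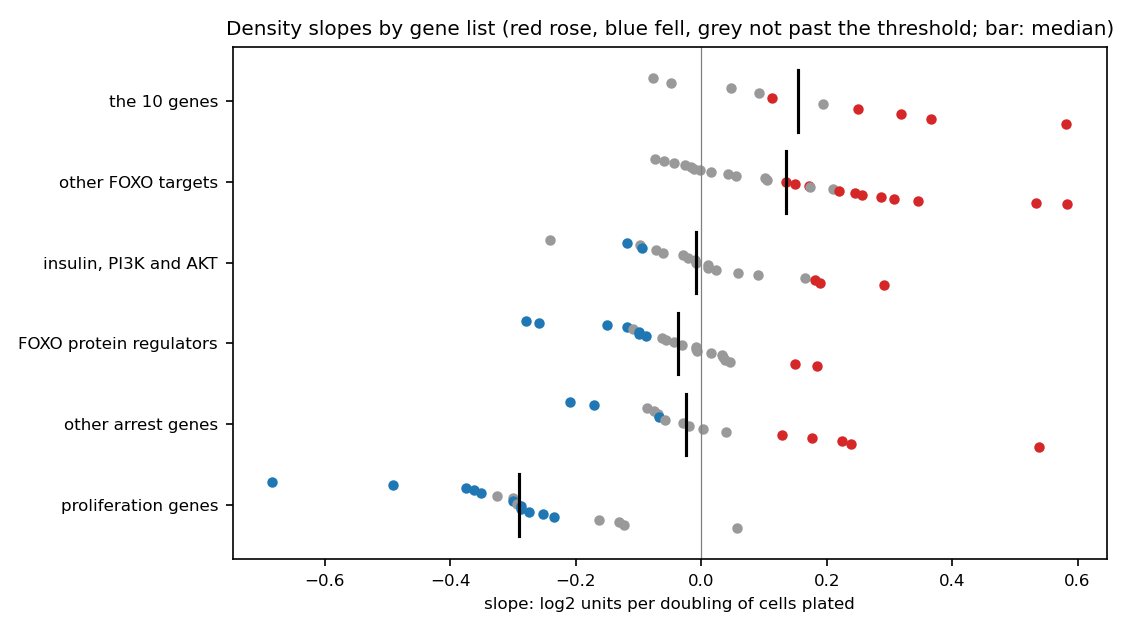
Slope of the log2 ratio per doubling of the cells plated (horizontal axis) for each gene of 6 lists (rows), with red for genes that rose, blue for genes that fell and grey for those that did not pass in limma; black bars are medians. The medians are 0.15 for the 10 genes, 0.14 for other FOXO targets and −0.29 for proliferation genes.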

How the data were processed

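Per the labels, the platform was the Affymetrix HG-U133 Plus 2 array. The authors deposited, for every probe set, its linear ratio to 50K; RMA is named without a version in the submitters' processing notes, and who divided by 50K, and how, is in none of the sources used here. Of 54675 probe sets, 41097 had 1 symbol in the platform annotation; 41043 of their identifiers were found in the RefSeq table. A gene was the mean log2 ratio of its single-symbol probe sets, with no filter on low values. Slopes on log2 of the cells plated (4 residual degrees of freedom) and quadratic terms (3) came from limma 3.58.1 (R 4.3.3); p-values are two-sided and Benjamini-Hochberg adjusted across the 19775 genes. With 1 array per density, residuals mix dish, technical and curve effects. Related genes, and the unrelated PIK3IP1 and PDCD4, were compared by exact permutation. The limma fits of the slope and of the quadratic term were also run on simulated data, with the outcome not given here. The exact permutation was not. The 10 genes and all lists were chosen with earlier results of these data known. Named genes were the 10, their relatives, up to 4 per list with the largest slopes past the threshold and nearest profiles. BNIP3, CDKN1C beside PDCD4, EIF4A2, INSR, MAPKAP1 and those said to be were named after their values were seen. Alternatives varied probe sets, scaling, the density scale, the variance model and each array.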

Additional observations from a re-analysis of the deposited data

How the results depend on the processing

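With _x_at and _s_at probe sets left out, 2664 genes passed instead of 4220, 1157 rising and 1507 falling, out of fewer genes with a probe set. Of the 10 genes, 7 still had a probe set and 1 of these passed, instead of 5 of 10. Between the 3 highest and the 3 lowest densities 2259 passed, 908 rising and 1351 falling. With each array left out in turn, the counts ranged from 2388 to 3909 genes, 1026 to 1627 rising, 1362 to 2282 falling and 2 to 7 of the 10. The quadratic term, refitted with arrays centred, without _x_at and _s_at probe sets and with each array left out, passed for no gene in these fits in limma; it was not refitted under the other alternatives. Without _x_at and _s_at probe sets the slope changed sign for KLF6 (0.051), BTG1 (−0.024), BTG3 (0.071), KLF2 (0.0040), KLF11 (0.041) and DCN (−0.0021), and for KLF6 minus KLF7 (0.018, adjusted p = 0.851); that of KLF11 was also positive against the untransformed cell number (0.011) and between the 3 highest and 3 lowest densities (0.041). With 1 array left out slopes ranged from −0.079 to 0.084 for FOXO4, −0.0032 to 0.15 for KLF10, −0.073 to 0.099 for KLF11 and −0.00011 to 0.018 for YPEL4. Of the other pairs, only PIK3IP1 minus PDCD4 could be formed without _x_at and _s_at probe sets. No paired analysis was possible because each density has 1 array. Fewer genes passed with any 1 array or the _x_at and _s_at probe sets left out. The same held between the 3 highest and the 3 lowest densities, with all arrays and probe sets kept. The causes were not tested. Signal over background is unknown, so the fall of a dim gene may be understated.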
